A study of Mus musculus with 13 samples.

Results

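Ion channel genes were examined across 12 chromatin immunoprecipitation sequencing (ChIP-seq) peak lists from the mouse line LβT2, which derives from pituitary gonadotropes, the cells that make luteinizing and follicle-stimulating hormone. The genes were all protein-coding genes named in the deposited annotation whose symbol begins with Kcn, Cacna, Cacnb, Cacng or Scn, and their peaks were those within 100 kb of the deposited start. This gave 105 of 15469 protein-coding genes, with 73 potassium channel genes, 22 calcium channel genes and 10 sodium channel genes, and 104 of them had a peak within that distance. Kcnc2, a fast-gating voltage-gated potassium channel gene, was named only for peaks farther away. The symbol also takes in genes whose products are not voltage-gated pores, such as auxiliary subunits, inward rectifiers and the epithelial sodium channel genes Scnn1b and Scnn1g.

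All groups carried the same lentiviral, doxycycline-inducible FLAG-mFoxL2, the mouse forkhead factor FOXL2 with a FLAG tag, in cells made by transduction of LβT2. After 24 h of recovery, 48 h of doxycycline and 2 h in 2% serum, they were exposed for 1 h to vehicle or to activin A (1 nM) and fixed with 1% formaldehyde. For each of the antibodies against SMAD2/3, FLAG (FOXL2 below) and acetylated lysine 27 of histone H3 (H3K27ac), there were 2 vehicle and 2 activin libraries (replicates 1 and 2 of each), and each library was pooled from 3 plates. FOXL2 peaks are therefore those of the tagged, induced protein, and a Protein A control was not analysed here.

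Ion channels set the membrane potential of endocrine cells. Voltage-gated sodium and calcium channels depolarize the cell and let in the calcium that drives hormone release, and potassium channels repolarize it or hold it at rest. Activin binds receptors that phosphorylate SMAD2 and SMAD3, which enter the nucleus and bind DNA with partner factors, among them FOXL2 in gonadotropes. H3K27ac marks active promoters and enhancers.

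The vehicle SMAD2/3 lists held 605 and 144 peaks, and the activin ones 7784 and 5970. The FOXL2 lists held 83834 to 97701 peaks and the H3K27ac lists 38995 to 41763. Reads per library are not known from these lists, so a longer list can hold more sites or more reads. H3K27ac lay at the start of 6 of 7 gonadotrope marker genes in all 4 libraries (Cga, Lhb, Gnrhr, Nr5a1, Foxl2 and Pitx1, but not Fshb). It lay at the start of 0 of 4 marker genes of other pituitary types in any library (Prl, Pomc, Tshb and Pou1f1). Gh and Tbx19 were also on the marker list, but the deposited annotation did not name them, so they had no start to read. In chromatin from a whole culture, a site bound in fewer cells and a site bound less in each cell cannot be told apart.

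The deposited annotation gives each gene 1 start, and for long channel genes that start is often internal. Only 23 of the 103 starts that could be derived lay within 100 bp of the 5′ end of the gene in RefSeq. Many peaks inside channel genes were credited to the start of another gene that happened to lie nearer. This also occurred where the deposited start lay close to the 5′ end. At Kcnb2, where the 2 were 329 bp apart, 3 SMAD2/3 regions found in both activin libraries were credited elsewhere. They lay 170.9, 298.8 and 321.5 kb from the 5′ end, so the 100 kb limit would also have left them out. Of the 969 FOXL2 regions inside the RefSeq span of a channel gene, 703 (72.5%) were not credited to it within 100 kb, and the same held for 285 of 455 H3K27ac regions and for 62 of 82 SMAD2/3 regions. Results below follow the deposited assignment unless the gene body is named.

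H3K27ac lay at the deposited start of a smaller share of channel genes than of all protein-coding genes. A peak lay within 1 kb of the start in both libraries of a treatment for 29 of 103 channel genes with a derived start (28.2%, 95% Wilson interval 20.4 to 37.5%), against 49.3% of all protein-coding genes. In all 4 libraries it did so for 22 genes (21.4%), against 44.9%. The voltage-gated potassium pore and silent subunit genes of the Kcna, Kcnb, Kcnc, Kcnd, Kcnf, Kcng, Kcns and Kcnv groups held the most, with 11 of 23 starts acetylated. The inward rectifier genes had 2 of 9 (no start was derived for Kcnj11), the calcium pore genes 1 of 8 and the sodium pore genes 1 of 7. None of the Kcne, α2δ and epithelial sodium channel genes had an acetylated deposited start.

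The choice of start moved this count. With a peak at the deposited start, the RefSeq 5′ end or any start in the RefSeq promoter table, 44 of 103 channel genes (42.7%) were acetylated, against 64.3% of all protein-coding genes, with a mean of 3.00 starts per channel gene and 2.96 per gene overall. The 15 added genes included Cacna1a, Cacna1c, Cacna2d1, Cacnb3, Kcnab2, Kcnh1, Kcnh2, Kcnj1, Kcnj4, Kcnj6, Kcnk3, Kcnn1, Kcnn3 and Scn8a. The share of channel genes stayed below that of all genes by either definition.

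Strength is given as a percentile rank, the place of a peak by the authors' −log10 q within its own list, where 100 is the strongest. Kcng4, a voltage-gated potassium subunit that forms channels only with other subunits, had one of the strongest acetylated starts, at 98.5 and 98.7 with vehicle against 98.4 and 97.3 with activin. Kcnb2, a delayed rectifier pore gene, ranked 88.6 and 92.7 with vehicle against 93.7 and 91.5 with activin, and the ranks overlapped between treatments.

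Of the 22 starts acetylated in all 4 libraries, 8 ranked higher in both activin than in both vehicle libraries (36.4%, against 22% of all such starts), 6 ranked lower (27.3%, against 25.2%) and 8 overlapped. The 8 higher were Cacna1g, Kcna7, Kcnc1, Kcnd2, Kcnh3, Kcnip3, Kcnj3 and Kcnma1. The 6 lower were Cacng2, Kcng4, Kcnj2, Kcnn2, Kcnt1 and Kcnv2. Potassium channel genes were 7 of the 8, 5 of the 6 and 17 of all 22. Kcnma1, the pore gene of the large-conductance calcium-activated potassium channel, ranked 63.9 and 57.4 with vehicle against 83.3 and 86.0 with activin. Cacna1g, a low-threshold (T-type) calcium pore gene, ranked 56.7 and 51.5 with vehicle against 67.8 and 75.5 with activin. Kcnj2, an inward rectifier that holds the resting potential, ranked 93.7 and 93.7 with vehicle against 86.2 and 85.1 with activin.

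Another 7 starts were not acetylated in all 4 libraries. Kcnk12, a tandem-pore potassium channel gene, had a peak only with activin, at ranks of 64.5 and 60.7. Kcns2, a silent potassium subunit gene that modifies other potassium channels, also had one only with activin, at 36.3 and 57.8. The reverse held for Scn3a, a sodium pore gene, whose deposited start was acetylated only with vehicle, at 29.6 and 28.0. Kcnd1, Kcnab3 and Cacng7 each lacked a peak in 1 library.

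**Figure D1:**
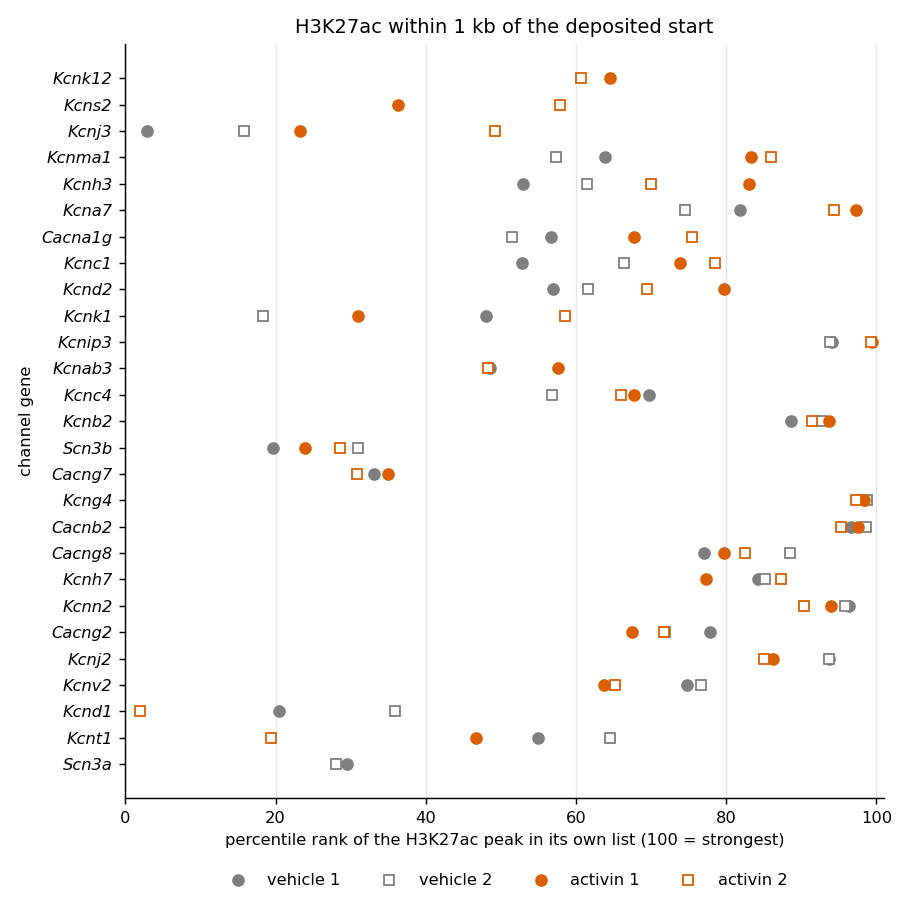
Percentile rank of the H3K27ac peak within 1 kb of the deposited start, in each of the 4 libraries (vehicle grey, activin orange, replicate 1 filled, replicate 2 open), for 27 of the 29 channel genes acetylated in both libraries of a treatment. Genes are ordered by the activin minus vehicle mean, with a missing peak taken as 0 in the ordering: Kcnk12 and Kcns2 have activin points only and Scn3a has vehicle points only.

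The 250 bases before the RefSeq start are shown for 5 potassium channel genes whose promoter window shares bases with an H3K27ac region that ranked higher with activin or was found only there. They were taken from the RefSeq promoter table (GRCm38.p6), which held 103 windows for 73 of the 105 genes, and are written 5′ to 3′ on the gene's strand. Capitals mark CAGACA or its reverse complement TGTCTG, a SMAD-binding sequence. Kcnip3 is chr2:127522095-127522344, minus strand; Kcna7 is chr7:45405710-45405959, plus strand; Kcnd2 is chr6:21215096-21215345, plus strand; Kcnj3 is chr2:55435720-55435969, plus strand; Kcnk12 is chr17:87797995-87798244, minus strand.
Kcnip3: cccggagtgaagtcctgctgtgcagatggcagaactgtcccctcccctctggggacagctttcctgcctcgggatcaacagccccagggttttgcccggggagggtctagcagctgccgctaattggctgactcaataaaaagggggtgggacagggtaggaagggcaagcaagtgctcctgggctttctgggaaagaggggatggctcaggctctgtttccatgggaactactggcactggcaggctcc
Kcna7: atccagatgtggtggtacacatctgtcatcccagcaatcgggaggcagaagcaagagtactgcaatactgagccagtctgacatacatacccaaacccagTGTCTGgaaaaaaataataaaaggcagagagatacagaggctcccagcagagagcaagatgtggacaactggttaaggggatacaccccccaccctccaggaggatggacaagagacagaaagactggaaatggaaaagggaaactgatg
Kcnd2: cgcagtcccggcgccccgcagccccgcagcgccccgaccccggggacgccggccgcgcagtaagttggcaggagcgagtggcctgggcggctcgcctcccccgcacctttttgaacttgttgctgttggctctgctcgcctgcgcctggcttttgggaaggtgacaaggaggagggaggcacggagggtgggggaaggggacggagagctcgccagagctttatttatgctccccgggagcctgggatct
Kcnj3: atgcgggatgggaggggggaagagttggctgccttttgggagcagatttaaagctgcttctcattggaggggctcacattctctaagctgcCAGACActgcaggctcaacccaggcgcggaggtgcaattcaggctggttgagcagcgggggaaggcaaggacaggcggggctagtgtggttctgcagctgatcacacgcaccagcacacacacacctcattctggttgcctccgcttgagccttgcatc
Kcnk12: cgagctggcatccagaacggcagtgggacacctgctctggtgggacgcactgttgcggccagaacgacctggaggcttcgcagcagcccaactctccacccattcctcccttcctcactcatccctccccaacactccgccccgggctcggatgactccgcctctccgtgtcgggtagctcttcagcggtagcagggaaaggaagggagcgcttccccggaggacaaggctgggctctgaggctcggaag

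Kcna7, a Shaker-type potassium pore gene, held TGTCTG from position -150 before the start, and Kcnj3, which encodes a G-protein-gated inward rectifier subunit, held CAGACA from position -159. Kcnip3, Kcnd2 and Kcnk12 had none of the motifs searched. The Kcnk12 window shares only its last bases with its H3K27ac region, which ends at chr17 position 87797999. Windows of Kcnj6 and Kcnn1 also met the choice above and are not shown. Kcnn1 held CAGACA from position -218, and Kcnj6 had none of the motifs. Over both strands, CAGACA was in 19 of the 103 channel windows (18.4%) and in 17.1% of all 32851 windows. GTCTAGAC, a palindrome of SMAD sites, was in 0 channel windows and in 0.167% of all. The forkhead sequences GTAAACA and GTCAACA were in 0 and 2 channel windows and in 3.17% and 2.07% of all. These are matches of letters only, and the share with CAGACA differed little from that of all promoters.

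Nearly all SMAD2/3 peaks at channel genes were in the activin lists. Channel genes were credited with 2 and 0 peaks in the vehicle lists and 36 and 23 in the activin lists. On a log2 scale of the number plus 1, the vehicle mean was 0.79 ± 1.12 (SD, n = 2) and the activin mean 4.90 ± 0.44 (SD, n = 2), 4.10 higher. The groups did not overlap, and the exact two-sided permutation test gave p = 0.33, the smallest value that 2 against 2 libraries allow. Summed over libraries, the ratio of 59 to 2 peaks was 29.5 (95% interval 7.81 to 249.3, counting error only), beside 18.4 for the whole lists. As a share of the list, channel peaks were 0.331% and 0% with vehicle (144 peaks in the second list, upper Wilson bound 2.60%) and 0.462% and 0.385% with activin. The shares differed by 0.259 percentage points (exact permutation p = 0.33), and by 0.0933 points without vehicle replicate 2. Counting peaks inside the gene bodies as well turned the sign of this difference to -0.299 points, so no direction can be read from the share.

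Merged across libraries, the peaks formed 37 SMAD2/3 regions. Of these, 21 were activin-only, with a peak in both activin and neither vehicle library (56.8%, against 54% of all SMAD2/3 regions). None was vehicle-only (0.0233% of all) or in all 4 libraries (1.53% of all). A peak in both activin libraries was found for 22 regions (59.5%, against 60%). These 22 were credited to 14 channel genes, 13.3% of 105 (interval 8.11 to 21.1%), against 11.1% of all protein-coding genes, so the share was near that of genes in general. Without activin replicate 2, the activin-only regions numbered 35 and the genes 23. Of the 22 regions, 14 lay in introns (63.6%, against 55.2% of all such regions at protein-coding genes), 8 were intergenic and none lay in an annotated promoter.

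**Figure D2:**
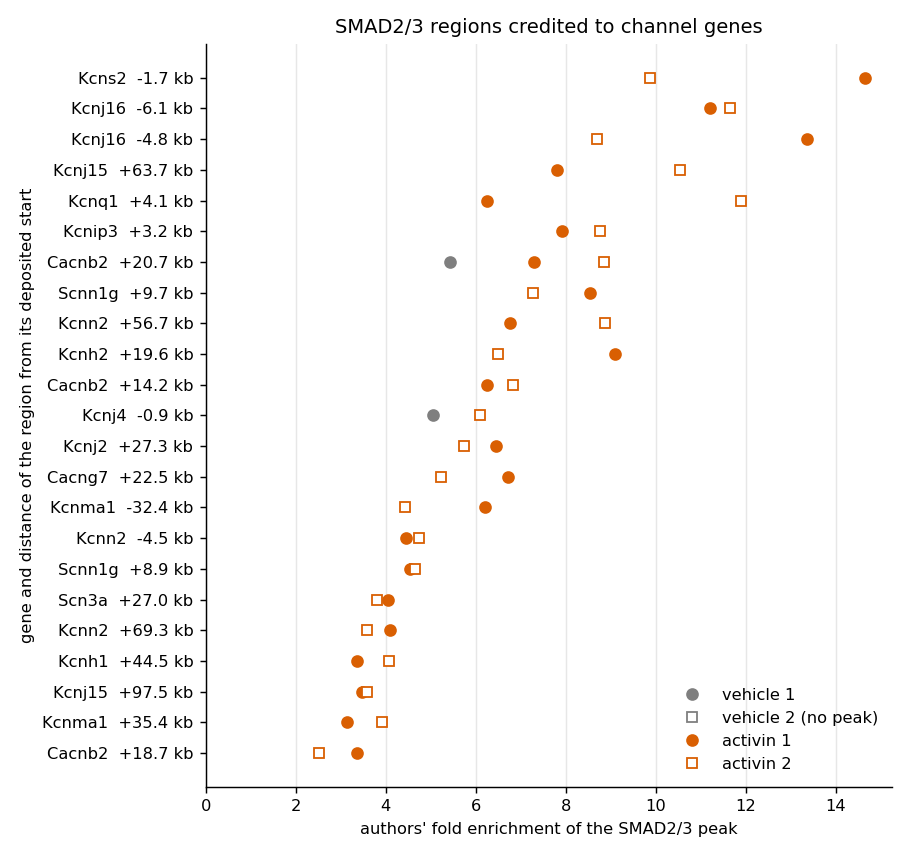
The authors' fold enrichment of the SMAD2/3 peak at each of the 22 channel regions found in both activin libraries and at the Kcnj4 promoter region, with the gene and distance in kb from its deposited start. Orange points are activin and grey points vehicle. A grey point is present only at Cacnb2 and Kcnj4, both in vehicle replicate 1.

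Inward rectifier genes held 5 of the 22 regions, at Kcnj16, Kcnj15 and Kcnj2. Kcnj16 encodes a subunit that modifies other inward rectifiers and had the SMAD2/3 region of highest rank among those credited to channel genes. It had a pair of intergenic regions 6.07 and 4.77 kb upstream, at chr11:110961787-110962218 and chr11:110962901-110963618. The authors' fold enrichment was 11.2 and 11.6 in the activin libraries at the first and 13.4 and 8.69 at the second, with no vehicle peak at either. The first ranked 96.1 and 95.8 within its lists. Both lay in a single H3K27ac region, which ranked 70.0 and 66.7 with vehicle against 96.3 and 94.0 with activin. FOXL2 at the first ranked 33.0 and 54.1 with vehicle against 74.6 and 83.8 with activin, and at the second 49.3 and 52.5, then 86.5 and 88.1. All 3 antibodies thus ranked higher, or were found only, with activin at this site, and no group overlapped.

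Kcnj2 starts 98.1 kb from Kcnj16 on the same chromosome. Its SMAD2/3 region lay 27.3 kb downstream at chr11:111093342-111093635, with fold enrichments of 6.46 and 5.73 with activin. FOXL2 there ranked 70.8 and 62.5 with vehicle against 89.5 and 92.5 with activin. H3K27ac there was called at rank 2.53 in vehicle 1, not in vehicle 2, and at 55.3 and 60.2 with activin. Kcnj15 had SMAD2/3 regions 63.7 and 97.5 kb downstream, and the first, at chr16:95321734-95321991 with folds of 7.81 and 10.5, overlapped neither H3K27ac nor a FOXL2 region of both activin libraries. It was the only credited channel region of both activin libraries with neither.

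Kcnj4, another inward rectifier, and Cacnb2 were the channel genes credited with a SMAD2/3 peak in a vehicle list. Inside channel gene bodies, vehicle replicates 1 and 2 had 9 and 2 SMAD2/3 peaks. Of these, 7 and 2 were not credited to channel genes within 100 kb. The Kcnj4 peak, at chr15:79506045-79506238 in the promoter 0.889 kb upstream, had a fold of 5.04 in vehicle 1 and 6.10 in activin 2, and was not called in the other lists. It was therefore not reproduced within either treatment.

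Cacnb2, an auxiliary β subunit that carries calcium pores to the membrane, was credited with 3 regions, all in the deposited intron 2 of 7. At chr2:14888425-14888795, 14.2 kb downstream, the folds were 6.25 and 6.83 with activin. At chr2:14894928-14895270, 20.7 kb downstream, they were 5.41 in vehicle 1, and 7.29 and 8.84 with activin. At chr2:14893016-14893235 they were lower, 3.36 and 2.50. The H3K27ac region around the first ranked 93.7 and 94.1 with vehicle against 97.0 and 97.1 with activin. The adjoining H3K27ac region, which holds the other SMAD2/3 regions, moved the opposite way, from 98.9 and 98.4 to 94.2 and 89.4. Cacng7, a γ subunit gene of the family that also regulates glutamate receptors, was the only other calcium channel gene credited with a region of both activin libraries. That region lay at chr7:3355312-3355527, with folds of 6.71 and 5.23.

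**Figure D3:**
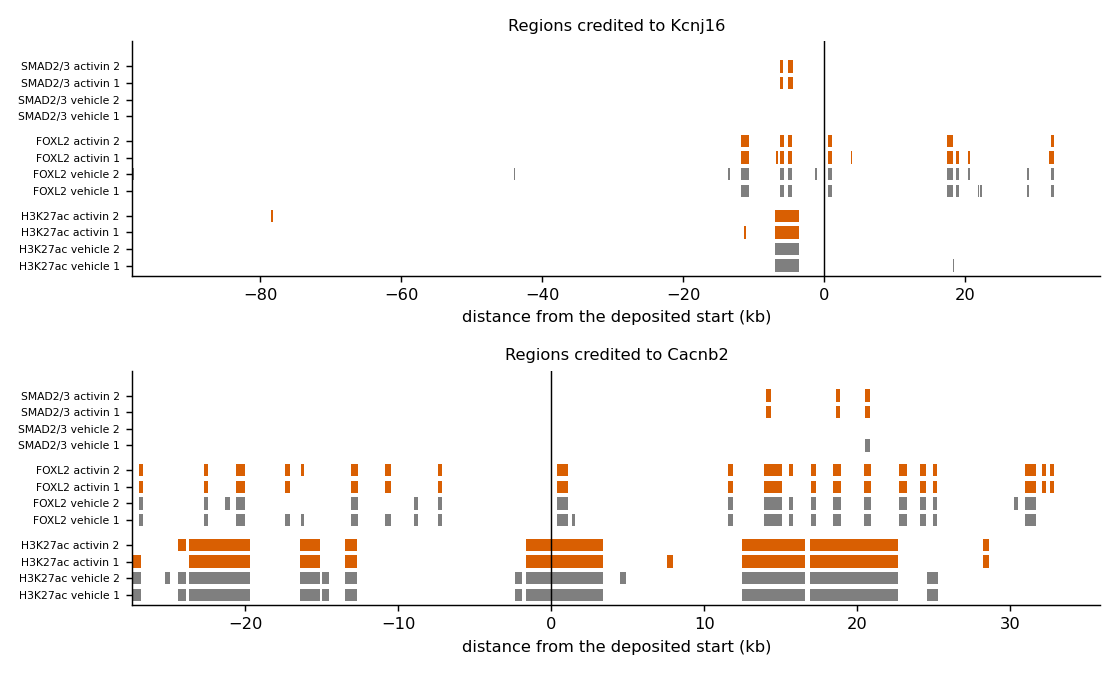
Merged regions credited to Kcnj16 and Cacnb2, by distance in kb from the deposited start (vertical line), drawn in each library that had a peak in them (grey vehicle, orange activin; the narrowest boxes are widened to be visible). The pair of SMAD2/3 regions upstream of Kcnj16 has no vehicle box, while the FOXL2 and H3K27ac regions there have boxes in all 4 libraries. At Cacnb2, SMAD2/3 boxes stand only downstream of the start, within 2 of the wide H3K27ac regions.

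Among the 23 Kcna, Kcnb, Kcnc, Kcnd, Kcnf, Kcng, Kcns and Kcnv genes, Kcns2 was the only 1 credited with a SMAD2/3 region of both activin libraries. Inside the bodies of Kcna7, Kcnb2 and Kcnd2 lay 1, 3 and 1 such regions that were not credited to them. The Kcns2 region lay 1.71 kb upstream at chr15:34835503-34835872, with folds of 14.6 and 9.87, and had no FOXL2 region. The H3K27ac region it touched ranked 24.7 and 34.3 with vehicle against 76.7 and 68.7 with activin, the largest rank difference of any channel H3K27ac region found in all 4 libraries. Kcnip3, which encodes a calcium-binding partner of Kcnd channels that also represses transcription, had a region in intron 1 of 8 at chr2:127518738-127519006, with folds of 7.91 and 8.75 and no FOXL2 region. Its H3K27ac region, which also covers the promoter printed above, ranked 94.2 and 93.9 with vehicle against 99.5 and 99.3 with activin.

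The other potassium channel regions lay at Kcnq1, Kcnh1, Kcnh2, Kcnn2 and Kcnma1. Kcnq1, a slow delayed rectifier pore gene, had a region in an intron at chr7:143113109-143113374 with folds of 6.25 and 11.9, at 1 of the strongest FOXL2 regions of any channel gene (97.6 and 98.0 with vehicle, 99.0 and 99.4 with activin). No H3K27ac was called there. Kcnh2, the ERG potassium channel gene, had an intergenic region at chr5:24306769-24306987 with folds of 9.09 and 6.50, where FOXL2 ranked 70.3 and 55.8 with vehicle against 84.5 and 92.0 with activin. Kcnn2, a small-conductance calcium-activated potassium channel gene, had 3 regions. At the one 56.7 kb downstream, with folds of 6.76 and 8.87, FOXL2 ranked 86.3 and 83.4 with vehicle against 97.9 and 97.0 with activin. At the one 69.3 kb downstream FOXL2 ranked lower with activin by a narrow margin, at 52.54 and 67.6 with vehicle against 39.7 and 52.47 with activin. Kcnh1, a voltage-gated potassium pore gene, had a region 44.5 kb downstream with folds of 3.37 and 4.08, where FOXL2 ranked lower with activin (53.0 and 56.3, then 50.2 and 50.9) and H3K27ac higher (49.7 and 43.0, then 68.0 and 60.7). The stronger region of Kcnma1, 32.4 kb upstream at chr14:24036234-24036489, had folds of 6.19 and 4.42. There FOXL2 (61.7 and 79.5, then 63.0 and 67.7) and H3K27ac (98.96 and 98.97, then 99.2 and 98.9) overlapped between treatments. The Kcnma1 region 35.4 kb downstream was weak (folds 3.13 and 3.91), and both FOXL2 (41.5 and 58.8, then 74.2 and 68.5) and H3K27ac (63.6 and 51.9, then 82.1 and 79.9) ranked higher with activin there.

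Sodium channel genes held 3 of the 22 regions. Scnn1g, the γ subunit of the epithelial sodium channel, had regions 8.92 and 9.68 kb downstream, with folds of 4.54 and 4.64 at the first and 8.54 and 7.27 at the second, chr7:121743921-121744387. FOXL2 at the second ranked 27.6 and 35.8 with vehicle against 59.6 and 53.9 with activin. At the first, FOXL2 was called only with activin, at 57.7 and 60.2. The H3K27ac region touching both ranked 43.5 and 53.1, then 89.0 and 75.6. The second also overlapped another H3K27ac region, which ranked 62.7 and 71.2, then 85.9 and 66.6, with overlap between treatments. At Scn3a the region lay in intron 21 of 26 at chr2:65471485-65471690, with folds of 4.06 and 3.81. There FOXL2 (98.3 and 98.7, then 96.6 and 97.6) and H3K27ac (95.6 and 96.3, then 91.3 and 88.1) were strong in every library and ranked lower with activin.

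Most SMAD2/3 regions of channel genes coincided with FOXL2 or H3K27ac. Of the 22, 17 overlapped a FOXL2 region of both activin libraries (77.3%, interval 56.6 to 89.9%, against 81.8% of all SMAD2/3 regions of both activin libraries). An H3K27ac region of both activin libraries was overlapped by 18 (81.8%, interval 61.5 to 92.7%, against 75.1%). Both were present at 14, FOXL2 alone at 3 (Kcnh2, Kcnq1 and Kcnn2), H3K27ac alone at 4 (Cacng7, Kcnip3, Kcnj15 and Kcns2) and neither at 1. The shares over all regions lay inside the intervals of the channel shares. From channel SMAD2/3 summits, the nearest FOXL2 summit lay at a median of 46 and 41 bp in the activin libraries, beside 43 and 42 bp for all SMAD2/3 peaks. Of the 14 genes with a SMAD2/3 region, 12 also had a FOXL2 region of all 4 libraries and 8 an acetylated start. These are 85.7% and 57.1%, against 88.9% and 57.4% of all protein-coding genes with such a region. Of the 91 channel genes without one, 52 had FOXL2 (57.1%, against 51.0% of all genes without), and 21 of the 89 with a derived start were acetylated (23.6%, against 48.3%). These counts were not tested.

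**Figure D4:**
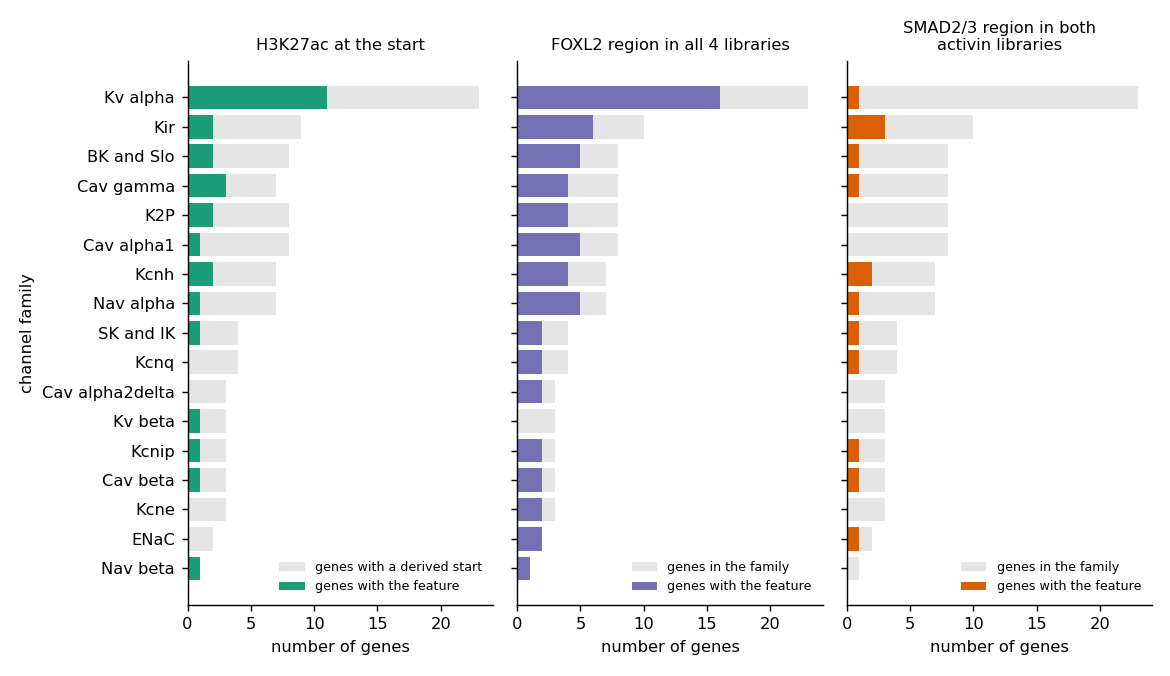
Number of channel genes in each family (grey, for H3K27ac only those with a derived start) and number with H3K27ac at the deposited start, with a FOXL2 region in all 4 libraries and with a SMAD2/3 region in both activin libraries (coloured). FOXL2 and SMAD2/3 regions are those credited by the deposited assignment. The voltage-gated potassium subunits (Kv alpha) reach 11, 16 and 1 of 23, and the inward rectifiers (Kir) 2 of 9, then 6 and 3 of 10.

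FOXL2 was widespread at channel genes with and without activin. The lists contained 348 and 358 channel peaks with vehicle and 368 and 358 with activin, a log2 difference of 0.040 (exact permutation p = 0.667). Their share of the list was 0.403% and 0.427% with vehicle against 0.377% and 0.381% with activin. The groups did not overlap, with a difference of -0.036 percentage points (exact permutation p = 0.33), while the activin FOXL2 lists were also the longer ones. Of 492 channel regions, 238 were in all 4 libraries (48.4%, against 46.8% of all FOXL2 regions), 37 were activin-only (7.52%, against 8.95%) and 22 vehicle-only (4.47%, against 3.22%). Left out in turn, vehicle replicates 1 and 2 gave 59 and 50 activin-only and 59 and 50 vehicle-only regions. Activin replicates 1 and 2 gave 62 and 64 activin-only and 38 and 35 vehicle-only regions.

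A FOXL2 region of all 4 libraries was credited to 64 of 105 channel genes (60.95%, against 55.2% of all protein-coding genes). The regions were unevenly spread. The 6 genes with the most, Kcnj2 (18), Cacnb2 (15), Kcnh7 (15), Kcnma1 (13), Kcnn2 (13) and Scn3a (13), held 87 of the 238 (36.6%). No such region was credited to 41 genes, among them the 3 Kcnab genes, which encode cytoplasmic β subunits. The body of Kcnab1 nevertheless held 27 FOXL2 regions, counting those of any library. Its deposited start lay 304216 bp from the RefSeq 5′ end. The 238 credited regions lay farther from the deposited start, at a median of 27.4 kb, than FOXL2 regions of all protein-coding genes within the same limit (17.4 kb). Of the 238, 2 were in annotated promoters (0.84% against 4.81%). Within 1 kb of the deposited start, FOXL2 was present in all 4 libraries at 7 of 103 genes (6.80%, against 7.75%): Cacna2d1, Cacnb2, Kcna10, Kcnj13, Kcnj16, Scn2a1 and Scn3a. Those starts lay 391887, 270560, 1, 5340, 0, 47922 and 68992 bp from the RefSeq 5′ end, in the same order, so several are internal. At Cacnb2 the FOXL2 peak at the internal start was among the strongest of the whole lists, with ranks of 99.8 and 99.8 with vehicle against 99.2 and 99.0 with activin.

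The strongest activin-only FOXL2 regions were in introns of Cacna2d4, an α2δ auxiliary subunit gene (chr6:119286177-119286568, ranks 82.7 and 84.0), Cacnb2 (chr2:14906983-14907294, 81.6 and 82.4) and Kcnip3 (chr2:127514260-127514575, 63.1 and 73.0). The strongest vehicle-only ones were at an annotated promoter inside Kcnj16 (chr11:110996839-110997094, ranks 53.2 and 66.8), in an intron of Kcnn2 (49.9 and 47.4) and at the promoter of the renal inward rectifier gene Kcnj1 (chr9:32393023-32393354, 46.0 and 46.1). No SMAD2/3 region of both activin libraries was credited to Cacna2d4 or Kcnj1.

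Of the 238 FOXL2 regions in all 4 libraries, 75 ranked higher in both activin libraries (31.5%, against 29.9% of all) and 79 lower (33.2%, against 28.1%). The largest differences upward were at Kcnip4, a Kcnd channel partner (6.50 and 19.3 with vehicle, 80.2 and 77.8 with activin), at Kcnu1, a sperm-type potassium channel gene (36.2 and 8.10, then 80.7 and 86.7), and at Cacnb4, a calcium β subunit gene (37.4 and 4.58, then 79.3 and 69.2). A SMAD2/3 peak was credited to Kcnu1 in activin 1 alone, at that same place, and none to Kcnip4 or Cacnb4. The largest downward were at Cacng2, Scn3a and Kcna10, a potassium pore gene. Kcna10 had a FOXL2 region 0.77 kb from its start that ranked 85.6 and 83.8 with vehicle against 62.4 and 38.9 with activin.

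The numbers of H3K27ac peaks at channel genes overlapped between treatments. The lists held 206 and 200 channel peaks with vehicle and 203 and 202 with activin (exact permutation p = 1), or 0.501% and 0.495% against 0.486% and 0.518% of the list (exact permutation p = 1). Of 268 regions, 117 were in all 4 libraries (43.7%, against 45.9% of all H3K27ac regions), 13 were activin-only (4.85%, against 5.84%) and 22 vehicle-only (8.21%, against 6.79%). Without vehicle replicates 1 and 2 in turn there were 23 and 14 activin-only and 47 and 44 vehicle-only regions. Without activin replicates 1 and 2 there were 34 and 40 activin-only and 33 and 28 vehicle-only regions. With a −log10 q of 5 or more there were 5 of each.

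Among the activin-only H3K27ac regions of highest rank were those at the start of Kcnk12, described above, and in intron 1 of Kcnma1 (chr14:23980043-23982850, ranks 43.3 and 59.3). Vehicle-only regions ranked highest near Kcnj15 (chr16:95346247-95346473, ranks 50.3 and 50.9, and chr16:95208403-95209112, ranks 51.0 and 44.1) and at Kcnip2 (chr19:45830247-45830586, ranks 37.5 and 29.0). Kcnip2 encodes another Kcnd channel partner.

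Among the 117 H3K27ac regions in all 4 libraries, 27 ranked higher in both activin libraries (23.1%, against 26.4% of all) and 45 lower (38.5%, against 31.2%). After Kcns2 and Scnn1g, the largest differences upward were at Kcnj3 (29.4 and 14.8 with vehicle, 63.0 and 41.6 with activin) and at Kcnk3, an acid-sensitive background potassium channel gene (13.0 and 5.18, then 37.7 and 38.7). Among the largest downward were those near Kcnh2 (29.6 and 49.5, then 7.28 and 11.2), at Kcnn3, a small-conductance potassium channel gene (75.9 and 78.5, then 66.9 and 30.9), and at Cacna1h, a T-type calcium pore gene (34.5 and 27.6, then 1.95 and 4.50). None of these 3 downward regions held a SMAD2/3 region of both activin libraries.

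Ranks were also read separately at regions with and without SMAD2/3. Of the 15 H3K27ac regions of channel genes that held a SMAD2/3 region of both activin libraries, 7 ranked higher with activin (46.7%, against 63.6% of all such regions in the genome), 4 lower (26.7%, against 16.6%) and 4 overlapped. Of the 102 without it, 20 ranked higher (19.6%, against 21.4%) and 41 lower (40.2%, against 33.2%). The median shift was 5.37 points with SMAD2/3 and -1.93 without, beside 6.51 and -1.52 over all regions. Of the 17 FOXL2 regions with SMAD2/3, 9 ranked higher (52.9%, against 52.5%) and 4 lower (23.5%, against 20.8%). Of the 221 without it, 66 ranked higher (29.9%, against 28.4%) and 75 lower (33.9%, against 28.6%). In the channel set, as over all regions, the share ranking higher was larger with SMAD2/3 than without. That difference was not tested, and the small numbers with SMAD2/3 leave wide intervals (24.8 to 69.9% for the 7 of 15 and 31.0 to 73.8% for the 9 of 17).

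**Figure D5:**
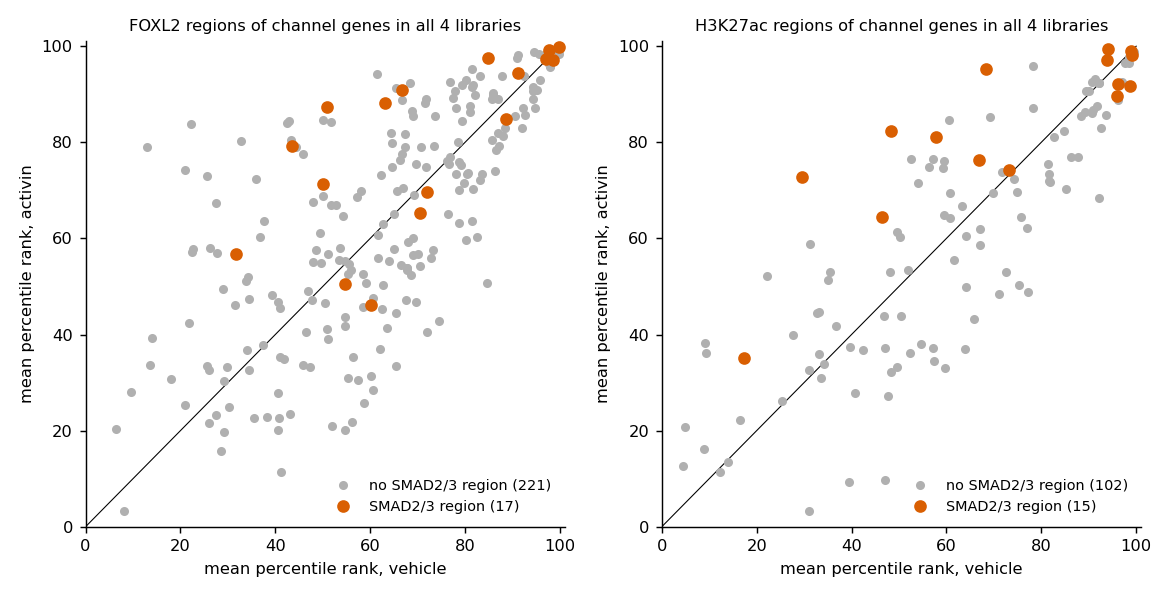
Mean percentile rank with activin against that with vehicle for the FOXL2 (left) and H3K27ac (right) regions of channel genes found in all 4 libraries. Orange points hold a SMAD2/3 region of both activin libraries (17 and 15) and grey points do not (221 and 102). Orange points stand both above and below the line of equal rank, at 9 and 4 FOXL2 regions and at 7 and 4 H3K27ac regions with ranks that do not overlap.

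Genes known for the excitability of pituitary cells were read at every start in the tables. For Cacna1c, the main L-type calcium pore gene, the deposited start and the RefSeq 5′ end were not acetylated. A start inside the gene at chr6 position 119108495 ranked 82.0 and 87.0 with vehicle against 94.8 and 91.8 with activin. No start of Cacna1d, another L-type pore gene, of Cacna1h, of Kcnk2, a mechanosensitive background potassium channel gene, or of Scn2a, a sodium pore gene listed as Scn2a1, was acetylated in any library. Cacna1a, a P/Q-type calcium pore gene, ranked 96.6 and 96.9 with vehicle against 98.9 and 98.7 with activin at the start at chr8 position 84338631. The upstream start of Kcnh2, at chr5 position 24351684, ranked 99.3 and 99.3 with vehicle against 99.3 and 99.1 with activin. Kcnj6, the partner subunit of Kcnj3, ranked 93.7 and 93.9, then 96.2 and 94.96.

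Scn3a had an acetylated upstream start at chr2 position 65567591, which ranked 92.8 and 92.3 with vehicle against 82.8 and 76.2 with activin, lower in both activin libraries like its deposited start. Kcnn3 was weak at its upstream start, at 26.0 and 37.5, then 34.5 and 0.505. Scn8a ranked 23.1 and 32.4, then 48.9 and 17.4. Ranks at the acetylated starts of Cacna1c, Cacna1a and Kcnj6 were thus higher in both activin libraries, those of Scn3a were lower or found only with vehicle, and those of Kcnn3 and Scn8a overlapped. At Kcnma1 the deposited start ranked higher with activin, as given above, while its RefSeq 5′ end, at chr14 position 24005110, ranked 22.5 and 47.8 with vehicle against 56.9 and 45.7 with activin, with overlap.

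Some SMAD2/3 regions inside channel genes but not credited to them ranked above every credited region, and others ranked low. Among those of both activin libraries, mean activin ranks ran from 5.32 to 99.6, beside 95.97 at the first Kcnj16 region. Of the 62 SMAD2/3 regions inside channel genes but not credited to them within 100 kb, 36 had a peak in both activin libraries, and they added 11 genes (among them Cacna1c, Kcna7, Kcnab1, Kcnb2, Kcnd2, Kcnh7, Kcnip4, Kcnj6, Kcnmb2 and Scn8a) to the 14, for 25 in all (23.8% of 105, against 15.6% of all protein-coding genes by the same count). Channel genes were longer, with a median of 56.0 kb against 22.1 kb. Among genes of 100 kb or more, 15 of 36 channel genes (41.7%) and 40.4% of all protein-coding genes had such a region. These genes were counted after their values were seen. The strongest, in intron 17 of 29 of Kcnma1 at chr14:23388091-23388440, was in all 4 libraries, with folds of 9.07 and 6.85 with vehicle against 14.7 and 18.2 with activin. A second region of all 4 libraries lay in intron 1 of 5 of Kcnd2, the A-type potassium pore gene, at chr6:21391719-21392196, with folds of 5.39 and 2.94, then 17.9 and 17.6. These were the only SMAD2/3 regions of all 4 libraries inside a channel gene. Cacnb2 held further regions, the strongest at chr2:14770807-14771211 with folds of 13.3 and 16.01 and no vehicle peak.

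At the 100 kb limit stood a strong region of Kcnh7, an ERG-type potassium channel gene. Its SMAD2/3 peak at chr2:63083743-63084106, with folds of 10.6 and 13.3 with activin, lay 100.334 kb from the start in activin 1, just outside. The nearest channel peak inside the limit was a Kcnh7 FOXL2 peak in vehicle 2 at 99.848 kb, rank 53.9, and the nearest outside was a Kcnh7 FOXL2 peak in activin 2 at 100.063 kb, rank 99.9. Merged, that FOXL2 region ranked 99.8 to 99.9 in every library and was the strongest of any channel gene.

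Over all H3K27ac regions of all 4 libraries inside channel gene bodies, 17 of 28 with SMAD2/3 ranked higher with activin (60.7%) and 5 lower. Of the 159 without it, 28 ranked higher (17.6%) and 68 lower (42.8%). Among the body regions that the deposited assignment leaves out, the counts were 12 of 17 higher with SMAD2/3, and 13 higher and 44 lower of 91 without. For FOXL2, 16 of 36 regions with SMAD2/3 ranked higher and 9 lower, and 142 and 139 of 444 without. The backgrounds for all regions of the genome are those given above.

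Other genes of excitability and calcium handling, such as Hcn, Trpc, Trpm, Ryr, Itpr, Orai, Clcn, Ano and P2rx genes, were counted from a list. Of 50 found, 4 had a SMAD2/3 region in both activin libraries (8%, interval 3.15 to 18.8%). That share was 11.1% for all protein-coding genes and 13.3% for channel genes. An acetylated deposited start was found for 24 of the 50 (48.0%, interval 34.8 to 61.5%). At the deposited start, all protein-coding genes had 49.3% and the channel genes 28.2%. With any deposited or RefSeq start, 28 of the 50 were acetylated (56.0%), between the 42.7% of channel genes and the 64.3% of all protein-coding genes. No test was made of these differences.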

How the data were processed

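Peaks were called separately in each library, as the deposited peak names show. The submitters' processing notes name Bowtie2, MACS2 and HOMER, and the builds GRCm38 and mm10, with no versions or settings. The labels' protocols state a depth of 20000000 reads, and the reads obtained per library are not given in the sources used here. The authors' peak lists hold a deposited score, their fold enrichment (a linear ratio whose background is not described) and their −log10 of p and q. HOMER's tables give each peak a class, a nearest start and a distance, per the file headers.

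For each antibody, peaks of any of its 4 libraries that shared 1 bp or more were joined into 1 region. Strength was the percentile rank by −log10 q within a list, since fold and −log10 q belong to their own list. Peak centres and the deposited distances gave the position of each start. Numbers of peaks (log2 of the number plus 1, as a list with 0 channel peaks has no log2) and shares were compared by exact permutation (two-sided, all 6 labellings of the 4 libraries). These p-values measure only the spread between libraries, which may be technical, since nothing names them as separate cultures. Shares have 95% Wilson intervals, which cover counting error only, and neighbouring regions are not independent. Merging and overlap were tested on simulated peaks. Python 3.11.15, pandas 2.3.3, numpy 2.4.6 and scipy 1.17.1 were used.

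The channel genes, gene lists and motifs were chosen with earlier results of these data known. Genes were named by rule: the 10 with the strongest SMAD2/3 region of both activin libraries, those with a vehicle SMAD2/3 peak, those with the most regions, the strongest regions of 1 treatment, those with the largest rank differences, and 15 genes of pituitary excitability. Others were named from complete counts after their values were seen. Alternatives were another distance, a stricter q, any start within the distance, lists of equal length, rank by fold, other overlaps and start windows, a replicate block and leaving out each library. The gene body and the RefSeq starts (GRCm38.p6) were added after seeing the data. Single values of some of these genes are not reported here.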

Additional observations from a re-analysis of the deposited data

How the results depend on the processing

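Across the alternatives, 116 values were counted as unchanged, 35 moved further and 8 changed sign. For differences in peak numbers and in shares of the list, unchanged means only that the sign was kept, whatever the size. The SMAD2/3 share difference, for example, was 0.714 points with any peak within 100 kb of a channel start, beside 0.259. The other values had a limit (the spread between replicates, the binomial interval of a share or 1.5 times a count). Counting peaks inside the RefSeq gene as well, an alternative added after seeing the data, reversed the SMAD2/3 share difference to -0.299 points and the H3K27ac one to -0.013, and gave 50 activin-only SMAD2/3 regions, 97 and 54 activin-only and vehicle-only FOXL2 regions, 38 and 47 H3K27ac regions and 25 genes with SMAD2/3. Counting any peak within 100 kb of a channel start gave 51, 89, 50, 50 and 43 regions in the same order and 32 genes. With any deposited or RefSeq start, 44 genes were acetylated. The log2 difference in H3K27ac peaks was near 0 and turned positive at a −log10 q of 5 or more (0.022), within 50 kb (0.042) and with any peak within 100 kb (0.035). At a −log10 q of 5 or more, there were 5 activin-only and 5 vehicle-only H3K27ac regions, and 70.6% of SMAD2/3 regions lay at H3K27ac. That share was 88.9% within 50 kb and 72.7% with 50% of the region covered.

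Leaving out each library in turn gave SMAD2/3 log2 differences from 3.31 to 4.90 and share differences from 0.0933 to 0.424 points. It gave 21 to 35 activin-only SMAD2/3 regions and 15 to 23 genes. FOXL2 regions were 50 to 64 activin-only and 35 to 59 vehicle-only, and H3K27ac regions 14 to 40 and 28 to 47. The H3K27ac log2 difference ran from -0.025 to 0.018 and its share from -0.012 to 0.020 points, and 66.7 to 78.3% and 69.4 to 73.9% of SMAD2/3 regions lay at FOXL2 and at H3K27ac. Leaving a library out loosens the requirement of a peak in both, so these counts are larger by construction.

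With the replicate number as a block, the log2 difference of SMAD2/3 peaks was 4.10 (exact sign-flip p = 0.5, the smallest for 2 pairs), as without the block. Same-numbered libraries deviated together with a correlation of 0.13 for FOXL2 and -0.028 for H3K27ac ranks, and nothing in the labels pairs them.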
